A study of Mus musculus with 12 samples.

Results

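The genes described here encode the proteins of the cytosolic ribosome, with a few close relatives. They were chosen by symbol: Rpl or Rps followed by a digit, or Rplp0, Rplp1, Rplp2 or Rpsa, without the Rps6k kinases and without symbols ending in -ps. Of 13547 features tested, 10912 of them named genes, 59 genes met this rule. They comprised 27 large-subunit proteins, 21 small-subunit proteins, the 3 stalk proteins, 5 paralogs (Rpl3l, Rpl22l1, Rpl36al, Rps4l and Rps27l) and 3 other genes of the name (Rpl7l1, Rps19bp1 and Rps23rg1). All 82 named probes of these genes passed the detection filter. Names were given only for probes of the authors' table, whose probes were those detected at a p-value under 0.05 on 6 arrays or more, so a dimmer gene could not enter. RefSeq lists 89 protein-coding genes under the same rule; 58 were measured here, and the other 31 were not analysed here. The remaining measured gene, Rps4l, is listed by RefSeq as a transcribed pseudogene.

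The study measured total RNA of the hypothalamus of FVB/NJ-Jax mice, an inbred strain, on Illumina bead arrays at postnatal day 180. The 4 groups were male small-litter, male control, female small-litter and female control mice, with 3 mice and 3 arrays each. Rearing in a small litter is a model of overnutrition early in postnatal life. The labels give no litter sizes and do not say which mice were littermates. All mice were of 1 strain and age, and none carried an engineered allele according to the labels.

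Ribosomal subunits are assembled, mostly in the nucleolus, from ribosomal RNAs and ribosomal proteins, and proteins made in surplus are degraded. The mRNAs of most ribosomal proteins in mammals start with a C followed by a run of pyrimidines, the 5' terminal oligopyrimidine tract, or TOP. The mTOR kinase pathway, which responds to nutrients and insulin, controls how well TOP mRNAs are translated, partly through the RNA-binding protein Larp1. That control acts on translation and need not change the mRNA amounts that an array measures. In the brain, ribosomal proteins are made in every cell type, so a level from whole hypothalamus is an average over all of them.

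Male arrays were dimmer than female arrays before background correction, with median signals of 102.56 to 108.08 in males and 112.2 to 126.97 in females, and did not overlap with them. Of 19 measured hypothalamic markers, 16 were detected on all 12 arrays, as were all 10 measured neuronal markers. The mean log2 deviation of 12 meningeal markers was 1.11 on male control 2 and 1.07 on female control 3, against -0.383 to 0.303 elsewhere. Male small-litter mice 2 and 3 scored 21.4 and 27.9 on the leading principal component of all features (27% of the variance), and the next highest array scored 4.62. The median change in each comparison that uses these arrays, and several of the single-gene values, are also given without them. Leaving out small-litter males 2 and 3 leaves 1 small-litter male, so every value given that way rests on that mouse for its group. Male control 3 was low in oligodendrocyte markers, with a mean deviation of -0.435 against -0.103 to 0.163 elsewhere. It was also low in microglia markers, with -0.391 against -0.0719 to 0.0994 elsewhere. The part of this in the values of the ribosomal protein genes was not tested. In bulk RNA, fewer cells of a type and less RNA per cell cannot be told apart.

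The ribosomal protein genes were steady from mouse to mouse. The SD between mice of a group, pooled over the 4 groups, had a median of 0.0886 on the log2 scale over the 59 genes, against 0.163 over all features. Bright probes vary less in general, and 37 of the 59 genes had a mean normalized level over 12. Among these 37 the median SD was 0.0733, against 0.0893 over all 633 features of that brightness. The steadiest was Rps21, a small-subunit protein, with an SD of 0.039, followed by Rpl9 with 0.046, Rps12 with 0.047 and the stalk protein Rplp1 with 0.049. At the other end stood Rps23rg1 with an SD of 0.264, Rps4l with 0.248, Rpl3l with 0.230, Rps15a with 0.208 and Rps25 with 0.199.

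**Figure D1:**
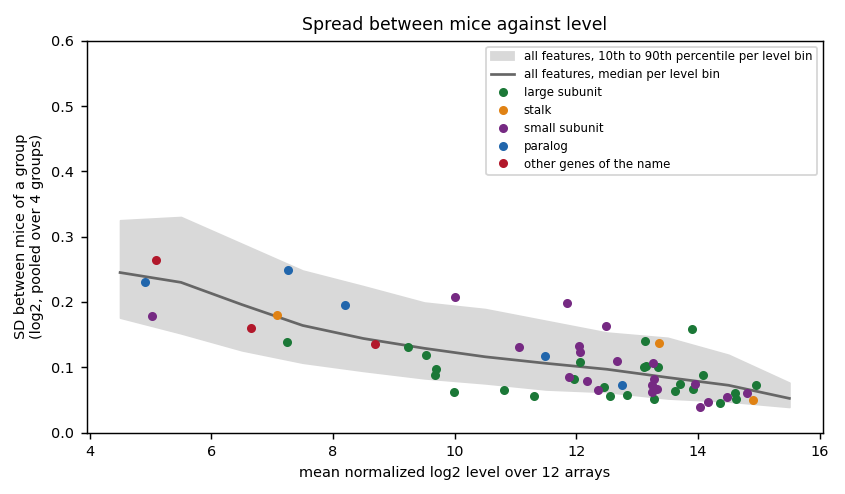
Spread between mice of a group (y axis, pooled SD on the log2 scale) against mean normalized log2 level of the probe (x axis) for the 59 genes, coloured by class; the line is the median and the grey band the 10th to 90th percentile of all features per level bin. The 37 genes with a level over 12 had a median SD of 0.0733, and the largest value, 0.264, was that of Rps23rg1.

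Of the 59 genes, 56 were detected on all 12 arrays. Rpl3l, the form of Rpl3 made mainly in striated muscle, was detected on 3 arrays. Rps23rg1, a mouse retrogene derived from Rps23, was detected on 6, as was the probe of Rpsa, a small-subunit protein also known as the laminin receptor. Many ribosomal protein genes have processed pseudogenes of near-identical sequence, and bead signal from such copies cannot be told apart from the gene's own.

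A start with a pyrimidine tract was looked for in the RefSeq promoter windows (GRCm38.p6), which matched 50 of the 59 genes. The tract was a C followed by at least 4 bases that were each C or T, on the gene's own strand, with the C within 10 bases of an annotated start. It was present for 30 of the 50 genes (60%), against 33.3% of all 27025 genes with a window. A tract of at least 8 bases was present for 19 of them (38%), against 9.09% of all genes. These are matches of letters and not measured starts.

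The start windows of 7 genes are shown because their litter values are described below, and that of Rps6 because its protein is the classic substrate of the S6 kinases. Each runs from 15 bases before the annotated start to 15 bases from it, read 5' to 3' on the gene's strand, with the tract in capitals. They lie at chr7:141447636-141447665 (Rplp2, plus strand), chr14:24490663-24490692 (Rps24, plus), chr2:39005117-39005146 (Rpl35, minus), chr3:130730323-130730352 (Rpl34, minus), chr11:98026909-98026938 (Rpl19, plus), chr7:118116133-118116162 (Rps15a, minus), chr3:86142654-86142683 (Rps3a1, minus) and chr4:86857353-86857382 (Rps6, minus). Rps24, Rpl34 and Rpl19 had another annotated start each, and the window with the longer tract is printed. Tracts stood in windows of genes with higher and of genes with lower values in small-litter males, and the window of Rps3a1, among the higher ones, held none.
Rplp2: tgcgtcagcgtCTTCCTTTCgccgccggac
Rps24: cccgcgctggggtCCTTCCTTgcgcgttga
Rpl35: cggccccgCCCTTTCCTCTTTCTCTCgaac
Rpl34: ccttcCTTTTCCTCTTCCggggacggtgct
Rpl19: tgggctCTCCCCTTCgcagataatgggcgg
Rps15a: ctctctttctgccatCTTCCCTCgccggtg
Rps3a1: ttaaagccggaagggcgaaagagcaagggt
Rps6: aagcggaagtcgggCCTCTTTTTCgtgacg

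In males, none of the 59 genes passed the threshold of an adjusted p of 0.05 between small-litter and control mice (limma, Benjamini-Hochberg over all 13547 features), and 0% of all features did. At an unadjusted p under 0.05 there were 5 of the 59 genes, or 8.47%, against 13.4% of all features. The fitted log2 changes of the 59 genes ran from -0.35 to 0.56, with 38 above and 21 below 0. Their median was 0.0414, against -0.0113 over all features. The highest change was that of Rps23rg1, which was detected in 0 control males. Under median scaling in place of quantile normalization the gene median was -0.0155 and the median of all features -0.116, so the sign of the gene median depended on the scaling, while under both scalings it lay above the median of all features.

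The values per array show which male mice carried the positive median. The median deviation of the 59 genes from their own means was 0.00792, 0.0634 and 0.0678 in small-litter males 1 to 3, against -0.0327, -0.0363 and 0.0341 in control males. The groups overlapped, since control male 3 lay above small-litter male 1. Of the 59 genes, 34, 41 and 43 were above their own mean in the small-litter males, against 18, 22 and 35 in the control males. With small-litter males 2 and 3 left out, the arrays that stood apart on the first component, the median change in males was 0.000164. That value rests on 1 small-litter male. With 1 array left out the median ran from 0.0233 without male control 1 to 0.0555 without male control 3.

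**Figure D2:**
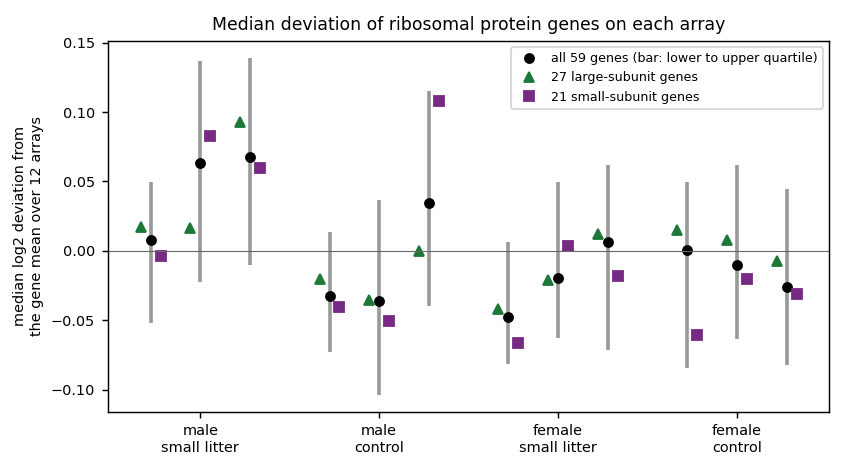
Median log2 deviation of the ribosomal protein genes from their means over 12 arrays (y axis), for each mouse of the 4 groups (x axis); black points are all 59 genes with a bar from their lower to their upper quartile, triangles the 27 large-subunit genes and squares the 21 small-subunit genes. Small-litter males 2 and 3 lie highest at 0.0634 and 0.0678, and female small-litter mouse 1 lowest at -0.0474.

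The classes had these values in males, with no test between them. Of the 27 large-subunit genes, 18 were higher and 9 lower in small-litter males, with a median of 0.0414. Of the 21 small-subunit genes, 12 were higher and 9 lower, with a median of 0.0104. The 5 paralogs had 4 higher values and a median of 0.144. The higher values included that of Rpl3l, which was detected in 1 small-litter male and 0 control males and so gives no measured change.

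The stalk proteins form the flexible arm of the large subunit that recruits elongation factors, and the fitted male changes of their 3 genes did not share a sign. The probe of Rplp2 read 13.36, 13.69 and 13.83 in small-litter males, against 13.35, 13.21 and 13.20 in control males (normalized log2 level). Small-litter males 2 and 3 were high, small-litter male 1 lay just above the highest control male, and the groups did not overlap. The log2 change of 0.38 ± 0.12 (SE) had an unadjusted p of 0.00702 and an adjusted p of 0.2662 (limma), the smallest adjusted p among the 59 genes in this comparison. Without small-litter male 1 it was 0.51 with an adjusted p of 0.02, when 662 features in all passed. Without small-litter males 2 and 3 it was 0.11.

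Rplp1, whose protein pairs with that of Rplp2, read 14.95, 14.92 and 14.93 in small-litter males, against 14.86, 14.93 and 14.93 in control males. These values overlapped, and the log2 change was 0.03 ± 0.083. Rplp0, the base on which both pairs sit, read 7.12, 7.13 and 6.65 in small-litter males, against 7.02, 7.24 and 7.32 in control males. Small-litter male 3 was low and the groups overlapped. The 1 probe of Rplp0 was far dimmer, with a mean level of 7.07 against 14.90 for Rplp1 and 13.36 for Rplp2, so its direction is a weak measure of the gene. The log2 change was -0.23 ± 0.14, and -0.07 without small-litter male 3.

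The groups did not overlap in males for 9 genes with higher values in small-litter mice, 15.3% of the 59 genes against 7.29% of all features. These were Rplp2, Rpl13a, Rpl34, Rpl35, Rps12, Rps21, Rps24, Rps3a1 and Rps23rg1. For lower values it was 1 gene, Rpl19, or 1.69%, against 7.56% of all features. None of the 10 passed the adjusted test, and apart from Rps23rg1 none differed by as much as 0.5 on the log2 scale.

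Rps24 is a small-subunit protein needed for the maturation of the small ribosomal RNA. Its brightest probe read 14.50, 14.61 and 14.68 in small-litter males, against 14.39, 14.39 and 14.43 in control males. All 3 small-litter males were above all 3 control males, with a log2 change of 0.19 ± 0.084 and an adjusted p of 0.3489 (limma). The other 2 probes of Rps24 had changes of -0.11 ± 0.13 and -0.14 ± 0.10, so the probes disagreed in sign. These 2 probes were far dimmer, with mean levels of 6.46 and 6.37 against 14.47 for the brightest. Without small-litter males 2 and 3 the change of the brightest probe was 0.10.

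Rps3a1, a small-subunit protein, read 10.99, 11.19 and 11.12 in small-litter males, against 10.88, 10.93 and 10.80 in control males. Every small-litter male was above every control male, and the log2 change was 0.23 ± 0.11 with an adjusted p of 0.4057 (limma). Rpl34 and Rpl35, both of the large subunit, had changes of 0.18 ± 0.085 and 0.15 ± 0.084. Rpl35 read 13.32, 13.44 and 13.40 in small-litter males, against 13.23, 13.23 and 13.24 in control males, whose values lay close together below them.

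Rps12 read 14.20, 14.25 and 14.33 in small-litter males, against 14.12, 14.08 and 14.16 in control males. Rps21 read 14.02, 14.00 and 14.03 in small-litter males, against 13.97, 13.90 and 13.99 in control males. Both sets lay just above the controls, with log2 changes of 0.14 ± 0.083 and 0.07 ± 0.081, and Rpl13a, a large-subunit protein, had 0.16 ± 0.11.

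Rps26, at the mRNA exit of the small subunit, had a change of similar size with overlapping groups. It read 12.06, 12.29 and 12.35 in small-litter males, against 12.02, 11.88 and 12.17 in control males, a log2 change of 0.21 ± 0.11 with an adjusted p of 0.4302 (limma). Rps6, phosphorylated by the S6 kinases downstream of mTOR, read 12.29, 12.44 and 12.41 in small-litter males, against 12.40, 12.44 and 12.43 in control males. Its groups overlapped, and the log2 change was -0.04 ± 0.088 with a 95% interval from -0.23 to 0.15. Rps25, a small-subunit protein, read 11.35, 11.96 and 11.91 in small-litter males, against 11.82, 12.03 and 11.88 in control males, and its change of -0.17 ± 0.15 was 0.02 without small-litter male 1, the lowest of the 6 males.

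Rpl19, a large-subunit protein that reaches across to the small subunit, went the other way. It read 11.10, 11.15 and 11.16 in small-litter males, against 11.37, 11.35 and 11.32 in control males. The ranges were narrow and well apart, and female mice of both litters read 11.27 to 11.50, like the control males. The log2 change was -0.21 ± 0.085, with an adjusted p of 0.3272 (limma).

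Rps15a, a small-subunit protein, had the largest negative change in males at -0.35 ± 0.15, with an adjusted p of 0.3513 (limma). It read 10.13, 9.77 and 9.60 in small-litter males, against 10.05, 10.02 and 10.48 in control males. The groups overlapped, with control male 3 high and small-litter males 2 and 3 low. The change was -0.20 without control male 3 and -0.06 without small-litter males 2 and 3.

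Rps23rg1 read 5.03, 5.28 and 5.68 in small-litter males, against 4.85, 4.71 and 4.75 in control males. The probe was detected on 2 of the 3 small-litter male arrays and on 0 control male arrays, so the controls were set at a floor. The floor is the lowest detected signal of an array, or the value of the probe where that is higher. The mean of the small-litter males lay 1.22-fold over the mean floor. This ratio counts the undetected small-litter array at its value and ignores the spread between mice, so it is no strict lower bound. The fitted log2 change, which rests on undetected control values, was 0.56 ± 0.19 with an adjusted p of 0.2679 (limma). Small-litter male 1 alone, at 5.03, lay below the mean floor of 5.04 in the controls, so without small-litter males 2 and 3 no fold can be given.

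**Figure D3:**
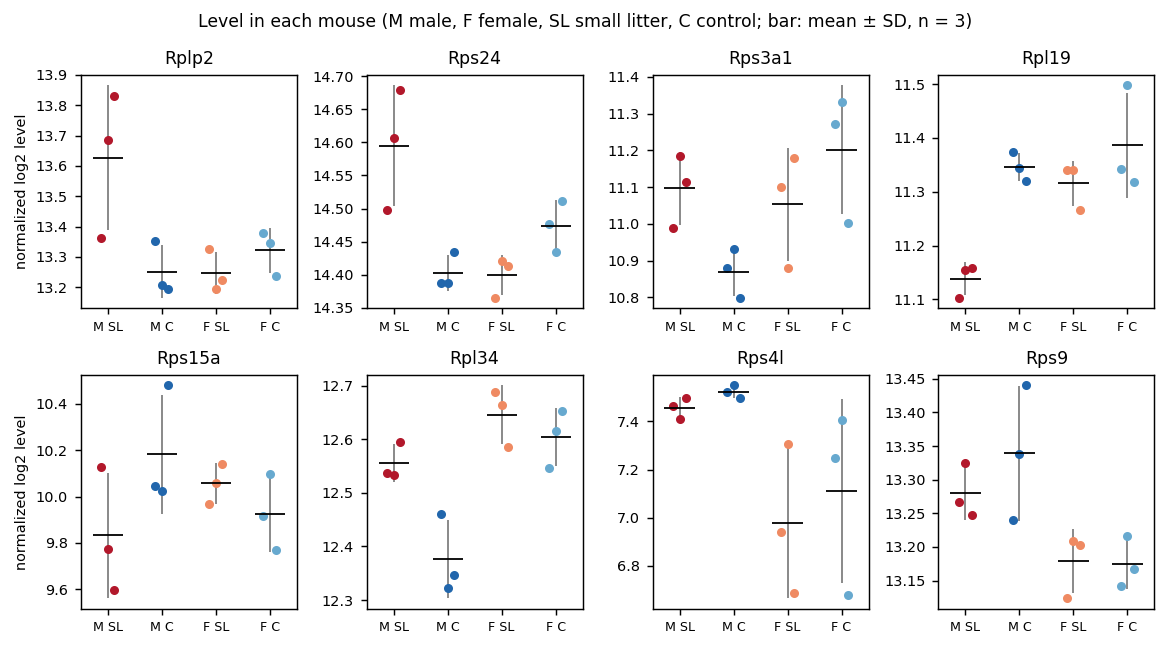
Normalized log2 level (y axis) of 8 genes in each mouse, by group (x axis, from the left male small litter, male control, female small litter and female control); bars are the mean ± SD of 3 mice, and each panel has its own y range. In Rplp2 small-litter males 2 and 3 stand at 13.69 and 13.83, above all other mice, and in Rpl19 the 3 small-litter males lie below all other mice.

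In females, none of the 59 genes passed the adjusted threshold (0% of all features did), and none had an unadjusted p under 0.05, against 3.34% of all features. The log2 changes ran from -0.23 to 0.25, with 28 genes above and 31 below 0. Their median was -0.00391, against 0.00223 over all features. The lowest change was that of Rps23rg1, detected in 1 female small-litter mouse. The highest was that of Rpl3l, detected in 0 female controls. Both ends rest on undetected values and are no measure of size. Under median scaling the gene median was -0.0713 and that of all features -0.0659. The median deviation of the 59 genes was -0.0474, -0.0193 and 0.0067 in female small-litter mice, against 0.00072, -0.0104 and -0.0261 in female controls, and the groups overlapped.

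The 95% interval of the female litter effect lay within ±0.5 on the log2 scale for 56 of the 59 genes, against 77.5% of all features. In males this held for 53 genes, against 66% of all features. A shift beyond ±0.5 was therefore outside the interval for most of these genes. The median half-width of the interval was 0.207 in both sexes, so for a typical gene shifts smaller than that were not resolved with 3 mice a group. In males the intervals of 5 of the 59 genes (8.47%) excluded 0, against 13.4% of all features. In females none did, against 3.34%. The intervals are not adjusted for the number of genes.

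In females the groups did not overlap for 1 gene with higher values in small-litter mice, Rps16 (1.69% of the genes, against 5.13% of all features). They did not overlap for 3 genes with lower values, Rpl24, Rps24 and Rps4x (5.08%, against 4.46%). Rpl24 is a large-subunit protein that is mutated in the Belly spot and tail mouse. It read 11.95, 11.92 and 11.95 in female small-litter mice, against 12.17, 12.06 and 12.08 in female controls. The 3 small-litter values lay close together below the controls, and the log2 change was -0.16 ± 0.10 with an adjusted p of 0.9996 (limma).

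Rps24 read 14.37, 14.42 and 14.41 in female small-litter mice, against 14.48, 14.43 and 14.51 in female controls, a log2 change of -0.07 ± 0.084. Its groups were thus apart in both sexes, with small-litter values higher in males and lower in females, though the highest female small-litter value and the lowest female control were close. How many of all features had this pattern was not counted. Rpl3l read 5.17, 4.87 and 5.29 in female small-litter mice, against 4.95, 4.77 and 4.88 in female controls, and was not detected in any female control. Its values overlapped, and it was detected in 2 of the female small-litter mice. Their mean lay 1.06-fold over the floor of the female controls, again no strict lower bound. The fitted change had an adjusted p of 0.9996 (limma).

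Fitted values of markers of other cells leaned one way within several lists, though none of these markers passed the threshold in the litter comparisons. All 12 measured meningeal markers had lower means in female small-litter mice, with a mean deviation of -0.213, -0.274 and -0.287 in these mice against -0.113, -0.351 and 1.07 in female controls. These scores overlapped, with only female control 3 high. In males 10 of the 12 were lower in small-litter mice, with a median change of -0.195. In females 7 of 9 choroid plexus markers were lower, with a median of -0.227. Of 19 hypothalamic markers, 17 were lower, and of 20 thalamic markers, 19 were higher in female small-litter mice, with median changes of -0.217 and 0.212. In males these lists did not lean this way, with 11 hypothalamic and 8 thalamic markers higher and medians of 0.0506 and -0.0368. All 6 red blood cell markers were lower in female small-litter mice (median -0.264), and 4 were lower in male ones (median -0.0211). The thalamic score was 0.244, 0.206 and -0.114 in female small-litter mice, against -0.0296, -0.0888 and -0.109 in female controls, so it overlapped too. The part of these markers in the values of the ribosomal protein genes was not tested. Without female control 3 and male control 2, which were high in meningeal markers, the gene median was -0.00142 in females and 0.0332 in males.

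**Figure D4:**
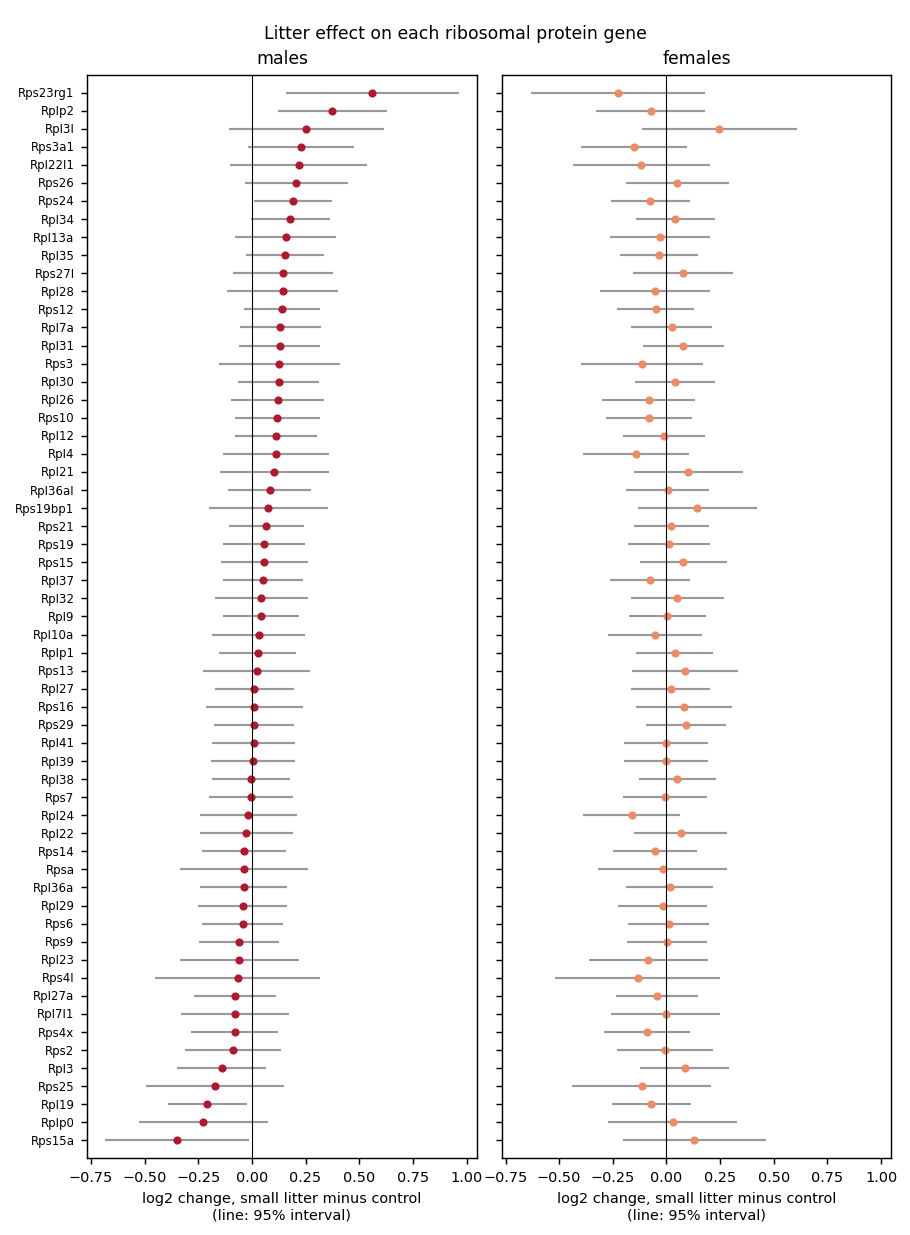
Log2 change between small-litter and control mice (x axis, points) with its 95% interval (lines) for each of the 59 genes, in males on the left and females on the right, ordered by the male change. In males 38 points lie above 0 and in females 28, and the male changes run from -0.35 for Rps15a to 0.56 for Rps23rg1.

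Averaged over both sexes, none of the 59 genes passed (0% of all features), and 1 gene, Rpl19, had an unadjusted p under 0.05 (1.69%, against 6.08% of all features). The median change was 0.023, against -0.0052 over all features, with 37 genes above and 22 below 0. Under median scaling these medians were -0.0479 and -0.0938, so the sign of the gene median again depended on the scaling. With 1 array left out the gene median ran from 0.00954 without female control 3 to 0.0374 without small-litter male 1. It was 0.0116 without small-litter males 2 and 3, and 0.0063 without female control 3 and male control 2. Rpl19 had a log2 change of -0.14 ± 0.060 with an adjusted p of 0.814 (limma). The 95% interval lay within ±0.5 for 58 of the 59 genes, Rpl3l being the exception.

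The difference between the litter effects, females minus males, was tested directly. None of the 59 genes passed (0% of all features), and 5 genes had an unadjusted p under 0.05 (8.47%, against 9.75% of all features). These were Rps23rg1 at -0.79 ± 0.26, Rplp2 at -0.45 ± 0.17, Rps3a1 at -0.38 ± 0.16, Rps24 at -0.27 ± 0.12 and Rps15a at 0.48 ± 0.22. The smallest adjusted p was 0.4405, for Rps23rg1 (limma), whose fitted difference rests on control males in which the probe was not detected and is no measure of size. The median difference of the 59 genes was -0.0196, and 0.00077 without small-litter males 2 and 3. Without these males the differences were -0.19 for Rplp2, -0.27 for Rps3a1, -0.17 for Rps24 and 0.18 for Rps15a. The other 2 probes of Rps24, which were far dimmer, gave 0.16 ± 0.18 and 0.21 ± 0.14, of opposite sign to the brightest. For Rplp2 the female values were flat, with 13.32, 13.19 and 13.22 in small-litter mice against 13.38, 13.35 and 13.24 in controls.

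Between the sexes, averaged over both litter groups, none of the 59 genes passed (limma), and 4.66% of all features did. That background of 631 features ran from 124 without female control 3 to 1454 without small-litter male 1, and was 21 without small-litter males 2 and 3. At an unadjusted p under 0.05 there were 7 of the 59 genes, or 11.9%, against 24.2% of all features. The median difference, male minus female, was 0.0496, against -0.00521 over all features, with 35 genes higher and 24 lower in males. Median scaling kept the direction, with 0.0931, and averaging all probes of a gene gave 0.0161. The median was 0.0265 without small-litter males 2 and 3, and with 1 array left out it ran from 0.0282 without male control 3 to 0.0565 without male control 1. The median signal of the arrays, which did not overlap between the sexes, moves with this comparison, while the raw signal of these genes overlapped. The part of the signal was not tested.

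The 3 X-linked genes measured were Rps4x, Rpl36a and Rpl39. Rps4x escapes X inactivation in humans but not in mice. It differed by 0.12 ± 0.066 between males and females, with an adjusted p of 0.3018 (limma). Rpl36a differed by -0.15 ± 0.066, with 11.82, 11.87 and 11.94 in small-litter males and 11.88, 11.89 and 11.97 in control males against 12.07, 11.90 and 12.17 in small-litter females and 12.06, 11.98 and 12.06 in control females. Most female values were higher, the ranges overlapped, and the adjusted p was 0.1907 (limma). Rpl39, at the exit tunnel for the new protein, differed by 0.05 ± 0.064.

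Rps4l, a relative of Rps4x, had the largest difference between the sexes. It read 7.46, 7.41 and 7.50 in small-litter males and 7.52, 7.55 and 7.50 in control males. In females it read 6.94, 7.31 and 6.69 in small-litter mice and 7.25, 7.41 and 6.68 in controls. The 6 males lay close together, and the females spread below them, the highest female within 0.01 of the lowest male. The difference was 0.44 ± 0.13 with an adjusted p of 0.06135 (limma), short of the threshold. It passed under some settings, among them the authors' values (0.28, adjusted p = 0.0349, limma). With any 1 array left out it did not pass, and the adjusted p ran from 0.0539 to 0.125 (limma).

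Rps9, a small-subunit protein near the path of the incoming mRNA, was the other gene whose sexes did not overlap (3.39% of the 59 genes higher, against 2% of all features). It read 13.27, 13.32 and 13.25 in small-litter males and 13.24, 13.34 and 13.44 in control males, against 13.12, 13.21 and 13.20 in small-litter females and 13.14, 13.22 and 13.17 in control females. The lowest male lay just above the highest female, and the difference was 0.13 ± 0.061 with an adjusted p of 0.2066 (limma). Its second probe gave 0.14 ± 0.066. No gene had all males below all females, against 1.5% of all features.

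Other differences between the sexes with an unadjusted p under 0.05 were 0.23 ± 0.083 for Rpl7l1, 0.20 ± 0.076 for Rps27l, 0.16 ± 0.070 for Rpl22, -0.16 ± 0.060 for Rpl34 and -0.20 ± 0.091 for Rpl23. Rpl7l1 is a nucleolar protein that resembles Rpl7, and its second probe gave -0.11 ± 0.11. The other probes of Rpl23 gave 0.09 ± 0.062 and 0.13 ± 0.086, also of opposite sign.

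Paralog pairs could be set side by side for their changes. In males Rpl22 changed by -0.03 ± 0.099 and Rpl22l1, which replaces it in some cells, by 0.22 ± 0.15. Rpl36a changed by -0.04 ± 0.093 and its autosomal copy Rpl36al by 0.08 ± 0.090. Rpl3 changed by -0.14 ± 0.096, and for Rpl3l, detected in 1 small-litter male and 0 control males, no fold can be given. For Rps4x and Rps4l the changes were -0.08 ± 0.093 and -0.07 ± 0.18. None of these 8 genes had an unadjusted p under 0.05 in males, and differences within pairs were not tested.

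**Figure D5:**
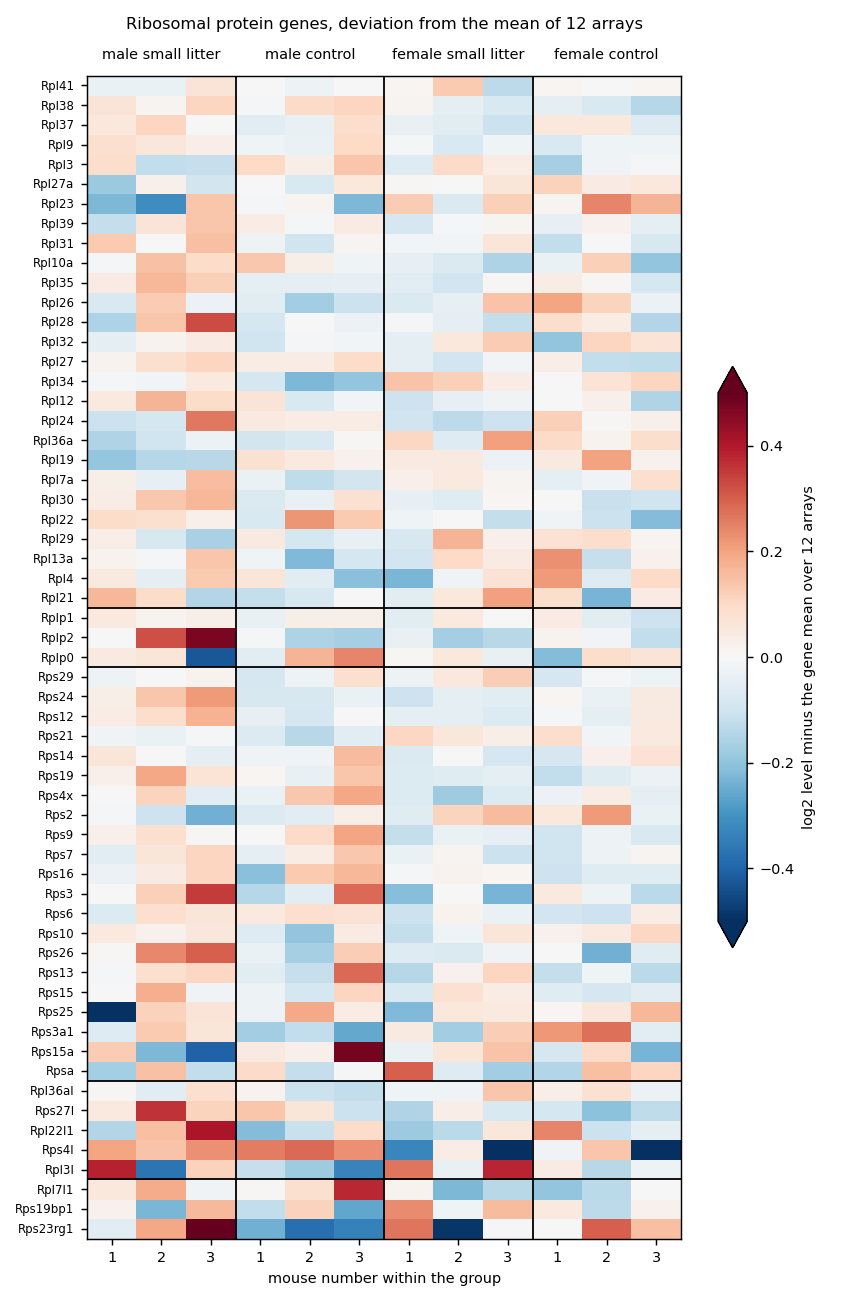
Log2 deviation of each of the 59 genes (rows, by class and within class by level) from its mean over the 12 arrays (columns, by group and mouse number), from blue (lower) to red (higher). Rplp2 is high in male small-litter mice 2 and 3, Rps15a is high in male control 3, and most rows at the top of the subunit blocks, where the probes are brightest, stay near 0.

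The genes moved together only loosely. Over the 12 arrays, after removing group means, the mean pairwise correlation was 0.0762 among the 59 genes, 0.0563 among the 27 large-subunit genes and 0.248 among the 21 small-subunit genes, against 0.00216 over all features. The genes closest to the median of the 59 over the 12 arrays were Rpl30 with r = 0.90, Rps26 with 0.862, Rps24 with 0.827 and Rpl35 with 0.822, each of which is part of that median. Outside the rule, Timp2 (0.95), Mcfd2 (0.945), Sgsm1 (0.936), Cbx7 (0.926) and Ass1 (0.925) followed it most closely. These values describe 12 arrays that were normalized together and of which 2 stood apart on the leading component.

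Of the 59 genes, 16 had several detected probes. The probes of a gene differed in the sign of their change for 10 of the 16 in males and for 9 in females. They differed by over 0.5 on the log2 scale for 1 gene and comparison, Rpl37 in the difference between the litter effects, where the lowest and highest probes gave -0.61 and -0.10. Those 2 probes were dim, with mean levels of 5.12 and 4.78, and were detected on 6 and 3 arrays. The brightest probe, which stood for the gene, had a mean level of 14.61 and gave -0.13.

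Genes that work with the ribosome were counted from lists of translation and assembly factors. In both litter comparisons, in their average and in their difference, none passed (limma) of 14 elongation factors, 35 initiation factors, 14 other TOP mRNAs, 78 ribosome assembly factors and 43 genes of the mTOR pathway and TOP mRNA control. Their median changes in males were -0.0206, -0.0732, -0.00169, -0.0134 and -0.0177 in that order, against -0.0113 over all features. In females they were -0.00244, 0.0133, -0.00806, -0.00447 and 0.0197, against 0.00223. The lists share some members and held 172 different genes, of which 23 (13.4%) had an unadjusted p under 0.05 in males and 3 (1.74%) in females, against 13.4% and 3.34% of all features. The 23 in males were 1 without small-litter males 2 and 3, 8 without small-litter male 3 and 43 without small-litter male 1, when 4 genes passed in males: Eif3d, Eif3i, Gnl3l and Lamtor1.

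Between the sexes 8 of these 172 genes passed, or 4.65%, against 4.66% of all features, so their share was that of the background. Of the 14 elongation factors, 1 was higher in males: Eef2, the factor that moves the ribosome along the mRNA, which is also a TOP mRNA, by 0.38 ± 0.070 (adjusted p = 0.01812, limma). Of the 35 initiation factors, 1 was lower: Eif2s3x, an X-linked subunit of Eif2 that escapes X inactivation in mice, by -0.41 ± 0.094 (adjusted p = 0.03377, limma). Of the 78 assembly factors 3 were higher, namely Tsr2, which escorts Rps26 to the ribosome in yeast, by 0.37 ± 0.081, Imp4, which works in early processing of the small-subunit RNA, by 0.28 ± 0.063, and Efl1, which helps to release Eif6 from new large subunits, by 0.32 ± 0.083. Of the 43 mTOR and TOP genes, Larp1 was higher by 0.48 ± 0.096 and Mlst8, a subunit of the mTOR complexes, by 0.26 ± 0.060. Pdpk1, a kinase upstream of Akt and the S6 kinases, differed by -0.50 ± 0.11 (adjusted p = 0.03257, limma).

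These calls rested on few arrays. With 1 array left out, between 1 and 13 of the 172 genes passed: Eef2 alone without female control 3, without female small-litter mouse 2 or without male control 3, and 13 genes without small-litter male 1. Eef2 passed in all 12 of these fits. Without small-litter males 2 and 3, 1 gene passed, Eif2s3x, and without female control 3 and male control 2 none did, with 30 genes at an unadjusted p under 0.05 (limma). Under median scaling 4 passed, Eef2, Eif2s3x, Larp1 and Tsr2, and with the replicate block 3, Eef2, Larp1 and Tsr2. With the mean of a gene's probes 5 passed, among them Nob1 in place of Larp1, Tsr2, Imp4 and Mlst8. The authors' values gave 12, and array weights 20. The median signal of the arrays differed between the sexes here too, and its part was not tested.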

How the data were processed

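Total RNA from 12 hypothalami, 3 mice in each of 4 groups, was hybridised to bead arrays. The deposited bead intensities of 45281 probes, neither background-subtracted nor normalized between arrays as their values show, came with deposited detection p-values in steps of 1 in 936. The authors' deposited log2 values (20791 probes) served as an alternative. Per the submitters' processing notes lumi was used, with a version not given in the sources used here. From their values, they are log2 intensities at shared quantiles without background subtraction. The intensities were normalized with neqc (offset 16) in limma (3.58.1; tables were handled with data.table, version 1.17.8, in R 4.3.3). A probe was kept if its detection p fell under 0.01 on 3 or more arrays (19704 probes), and the brightest probe stood for a gene. Names came from the platform annotation (18003 probes with 1 symbol, 6 with several, 2782 unnamed among the 20791). Group means were estimated from the 12 arrays together (lmFit, eBayes, 2-sided), with Benjamini-Hochberg adjustment over 13547 features and a threshold of 0.05. The fit was tested on simulated data. The number of arrays limits precision.

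The labels call the mice biological replicates but name no litters, so p-values measure the spread between these mice. Mice with the same number in different groups showed no joint deviation, with r from -0.126 to 0.111 over 18 pairs. For different numbers r ran from -0.117 to 0.168 over 36 pairs. This cannot exclude a pairing, since deviations within a group of 3 mice depend on each other. The main fit did not pair mice by number. The genes and gene lists were chosen with earlier results of these data known. Genes were named by the size of their change, their spread, as stalk proteins, paralogs or X-linked genes, by detection and by disagreement of probes. Genes named because groups did not overlap, and Rpl30, were chosen after their values were seen. The alternatives replaced the background correction (the authors' values, none, an offset of 50), the scaling (median), the detection filter (all 12 arrays or none), the choice of probe (mean of a gene's probes), the gene rule or the variance model (trend and robust, weights per array, the replicate block), or left out 1 array. Another 3 were chosen after seeing the data: leaving out small-litter males 2 and 3, leaving out female control 3 and male control 2, and keeping only the 51 subunit and stalk proteins.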

Additional observations from a re-analysis of the deposited data

Results flagged for a closer look

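Rps24 drew attention because its groups did not overlap in either sex and lay in opposite order, higher in small-litter than in control males and lower in small-litter than in control females. The share of all features with this pattern was not counted. In males 7.29% of all features lay apart with higher small-litter values, and in females 4.46% with lower ones. The highest female small-litter value, 14.42, was close to the lowest female control, 14.43. The difference between the litter effects, females minus males, was -0.267 on the log2 scale, with an adjusted p of 0.4944 (limma), so the difference did not pass the test. The other 2 probes of Rps24 had the opposite sign in males, in females and for the difference, at 0.16 and 0.21. Their mean levels were 6.46 and 6.37, against 14.47 for the brightest probe.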

How the results depend on the processing

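In the females, males, average and difference of the litter effects, 0 ribosomal protein genes passed under each alternative other than leaving out 1 array. With 1 array left out, the count in males was 0 to 1, the 1 being Rplp2 without small-litter male 1, and it was 0 in the other 3. Between the sexes the count was 0, against 2 with the authors' values, 2 without background correction, 1 with an offset of 50, 1 with detection on all 12 arrays, 3 with trend and robust, and 2 with array weights. The genes were Rps4l, Rpl34, Rps27l and Rpl7l1. The count of all features between the sexes was 631, against 1071 with the authors' values, 1076 without background correction, 984 with the larger offset, 1144 with trend and robust and 1686 with array weights. It was 344 under median scaling and 352 under the replicate block, which left the count of ribosomal protein genes at 0 in all 5 comparisons. It was 21 without small-litter males 2 and 3 and 79 without female control 3 and male control 2. Leaving out 1 array gave 124 (without female control 3) to 1454 (without small-litter male 1) between the sexes, 0 to 1 in females, 0 to 662 in males, 0 to 1 on average and 0 to 190 for the difference, the highest in males and for the difference without small-litter male 1. The gene medians under median scaling were -0.0713 in females, -0.0155 in males, -0.0479 on average and 0.0931 between the sexes. The median between the sexes was 0.0161 with the mean of a gene's probes, and that in males was 0.000164 without small-litter males 2 and 3. The causes of these changes were not tested. Of 4185 values of named genes under the alternatives other than the last 3, 4119 shifted by less than the gene's SD between mice and did not pass. Another 54 shifted by more, and 12 came to pass the threshold. No named gene passed in the main fit, so none could be counted as reversed. Direction was not part of this count. Under median scaling 12 of the 59 genes were above 0 in females and 20 in males, against 28 and 38 as reported. The signal over background limits Rpl3l, Rps23rg1 and Rpsa, detected on 3, 6 and 6 arrays.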
